A study of Mus musculus with 8 samples.

Results

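The mRNAs of 8 subunits of cohesin were followed through RNA immunoprecipitation with an antibody against the germ cell RNA-binding protein DAZL in fetal mouse gonads. Rec8, Smc1b and Stag3 encode the subunits used in meiosis, and Rad21, Smc1a, Smc3, Stag1 and Stag2 encode those of the mitotic complex. The members were all non-control probes that the scanner files name for these genes, and the Rec8 probes, which carry the older name Rec8L1, were matched through their accession. This gave 17 of 41101 probes and 8 of 19694 named genes. Of the 17 probes, 14 were tested and 7 were well above background on all 8 arrays, and every gene kept at least 1 tested probe. Each gene is described by its tested probe with the highest mean, and values of its other probes are given where they differ and were above background in the groups compared.

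The study asked which mRNAs DAZL binds in ovaries and testes at E14.5, the stage of mid-gestation when XX germ cells enter meiosis and XY germ cells do not. Gonads of strain MCH, for which the labels name no allele and no treatment, were pooled in lots of 50, either XX or XY. From each lysate 5% was kept as input and the rest was precipitated with the anti-DAZL antibody (IP), and Cy3-labelled cRNA was made from 50 ng of RNA for an input and 1 ng for an IP. The 8 arrays formed 4 groups of 2, the input and the IP of each sex. An IP value can be read only against its input, since precipitates made with a control antibody were not analysed here. Both inputs and both IPs of a sex were on 1 slide, so that slide and sex cannot be told apart, whereas IP and input of a sex share a slide. Whole gonads were used, so all cell types contributed to every lysate. The labels number the replicates but do not say whether they were separate lots, so the p-values measure only the spread between these samples, which may be technical.

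The inputs had 16713 to 20391 probes well above background and the IPs 6068 to 9468. The germ cell marker Ddx4 was above background on all 8 arrays. In the inputs, the Sertoli cell marker Amh was not above background in XX and was at least 10.9-fold higher in XY, and Fst, of ovarian supporting cells, was at least 59.0-fold higher in XX. The Y-linked Eif2s3y was not above background on any XX array and was at least 62.8-fold higher in XY input. Dazl mRNA itself, the transcript of the antibody's target protein, was higher in IP than in input by 2.69 ± 0.39 on the log2 scale in XX and by 2.06 ± 0.39 in XY (SE; adjusted p = 0.000310 and 0.00201).

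Cohesin is a ring that holds sister chromatids together from replication until they separate. It is built of a pair of SMC proteins, a kleisin that closes the ring and a STAG protein that binds the kleisin. In meiosis REC8 replaces the kleisin RAD21, SMC1B replaces SMC1A and STAG3 replaces STAG1 or STAG2, while SMC3 serves in both rings, and REC8 cohesin forms the core of the chromosome axis on which homologues pair. In somatic cells the meiotic subunits are kept silent, and E2F6, a repressor that binds TCCCGC elements, is known for this role at Stag3 and Smc1b.

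Because all 3 meiotic subunits were higher in XX, their promoters are shown, as the 120 bases that end with the fourth base after the start of transcription (RefSeq, GRCm38.p6). They lie at chr14:55618050-55618169 on the plus strand for Rec8, chr15:85131954-85132073 on the minus strand for Smc1b and chr5:138280393-138280512 on the plus strand for Stag3, written 5′ to 3′ in the direction of the gene, with TCCCGC in capitals.
Rec8: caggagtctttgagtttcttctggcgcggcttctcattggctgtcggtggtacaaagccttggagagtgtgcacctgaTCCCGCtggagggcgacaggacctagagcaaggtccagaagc
Smc1b: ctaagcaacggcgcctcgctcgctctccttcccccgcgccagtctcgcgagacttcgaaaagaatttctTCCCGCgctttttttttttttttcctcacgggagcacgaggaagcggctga
Stag3: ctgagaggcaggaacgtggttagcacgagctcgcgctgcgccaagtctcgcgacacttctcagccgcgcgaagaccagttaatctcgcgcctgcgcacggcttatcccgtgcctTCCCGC
TCCCGC was searched on both strands of 300 bases, 250 before the start and 50 after it. It was present once in each of these promoters, beginning 38 bases before the start in Rec8, 47 before it in Smc1b and 2 before it in Stag3. It was also present in the promoters of Smc1a, Smc3 and Stag1, so that all 6 of the members with a promoter in the table held it, against 20.0% of the 32851 promoters in the table. CNCCTCAG, the element bound by STRA8 and MEIOSIN, was in none of the 6, against 7.94% of all promoters and 4 of 9 promoters of synaptonemal complex and axis genes. The E-box CACGTG was in 1 of the 6, that of Stag3, against 7.15% of all. Of the same 9 axis promoters, 5 held TCCCGC and 5 held CACGTG. The motifs were chosen with the expression values known, and a match is a description of the letters and not of binding.

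In the input, which shows the mRNA present in the whole gonad, all 3 meiotic subunits were higher in XX than in XY, and of the 5 mitotic subunits only Rad21 passed the test, in the opposite direction. Among all 18265 tested probes, 5.87% were called higher in XX and 6.10% lower (adjusted p under 0.05). Values are log2 signals with each array's 75th percentile set to 0, so that 1 unit is a doubling, and they are compared between arrays for a probe, never between probes. Only the summed levels of markers add linear values of several probes, dim ones included, so that bright probes weigh most in them.

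Smc1b (probe at chr15:84892529-84892588 of mm8, minus strand), which encodes the meiotic SMC protein, was 6.57 and 6.86 in XX input and 1.83 and 2.16 in XY input. The groups were far apart, and the difference of 4.72 ± 0.40 (SE), 26.3-fold, had an adjusted p of 2.07e-05 and was higher than that of 99.9% of tested probes. Rec8 (chr14:54579394-54579453, plus strand), the meiotic kleisin, was 3.84 and 3.98 in XX input and 1.18 and 1.32 in XY input. Its difference was 2.66 ± 0.39, 6.31-fold, with an adjusted p of 0.000824. Stag3 (chr5:138541962-138542021, plus strand), the meiotic STAG protein, was 5.30 and 5.43 against 3.63 and 3.54. That difference was the smallest of the 3, at 1.78 ± 0.41 or 3.43-fold with an adjusted p of 0.0129, and neither Stag3 nor Rad21 passed the threshold when any 1 of the 4 input arrays was left out. Relative to the other meiotic subunits, Smc1b differed by 2.06 more than Rec8 and by 2.94 more than Stag3 on the log2 scale, and Rec8 by 0.88 more than Stag3. For these 3 ratios no XX array overlapped an XY array.

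All 3 meiotic subunits were above background on both XY inputs as well. The second Rec8 probe (chr14:54578438-54578822) gave the same direction, 1.06 and 0.79 against -1.24 and -1.13, with a difference of 2.11 ± 0.44 and an adjusted p of 0.00751. Of 10 germ cell markers, each by its brightest tested probe, 0 were called higher in XX input and 6 lower. Their summed level was 107 to 118 times the 75th percentile in XX input and 202 to 236 in XY input. A large part of this gap came from Dppa3, at 1.65 and 1.97 in XX input and 5.76 and 6.23 in XY input on the log2 scale. Of the 10, 7 were above background on both XX inputs, and the sum does not measure germ cell number. Dazl and Ddx4 differed by 1.22 ± 0.39 and -0.19 ± 0.38 between the inputs (adjusted p = 0.0672 and 0.845). In bulk gonads, fewer cells of a type and less RNA per cell cannot be told apart, and the part of germ cell number in these differences was not tested.

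Among the mitotic subunits, Rad21 (chr15:51792854-51792913, minus strand), the mitotic kleisin, was 4.38 and 4.70 in XX input and 5.82 and 5.92 in XY input, a difference of -1.33 ± 0.39 with an adjusted p of 0.0468. Its second probe (chr15:51794260-51794319), above background on 1 of the 2 XX inputs, differed by -0.89 ± 0.40 and did not pass (adjusted p = 0.195). Smc1a (chrX:147402600-147402659, plus strand) was 3.60 and 4.02 against 3.85 and 3.95, and these groups overlapped. The interval of its difference ran from -1.26 to 1.07 on the log2 scale. Smc3 (chr19:53695308-53697171, plus strand), shared by both rings, was 3.31 and 3.14 against 2.34 and 2.40, a difference of 0.86 with a 95% interval of -0.10 to 1.81. Stag1 (chr9:100766622-100766681, plus strand) was 2.93 and 3.21 against 2.78 and 2.91, an interval of -0.60 to 1.05. Stag2 (chrX:38456579-38456638, plus strand) was 0.36 and 1.12 against 1.59 and 2.22, a difference of -1.16 ± 0.52 that missed the threshold (adjusted p = 0.201), and its second probe, above background on all 4 inputs, differed by -0.44 (adjusted p = 0.587). Smc1a and Stag2 are X-linked genes, and neither was called between the inputs in the main fit. With the replicate number as a block in the fit, Stag2 was called lower in XX.

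**Figure D1:**
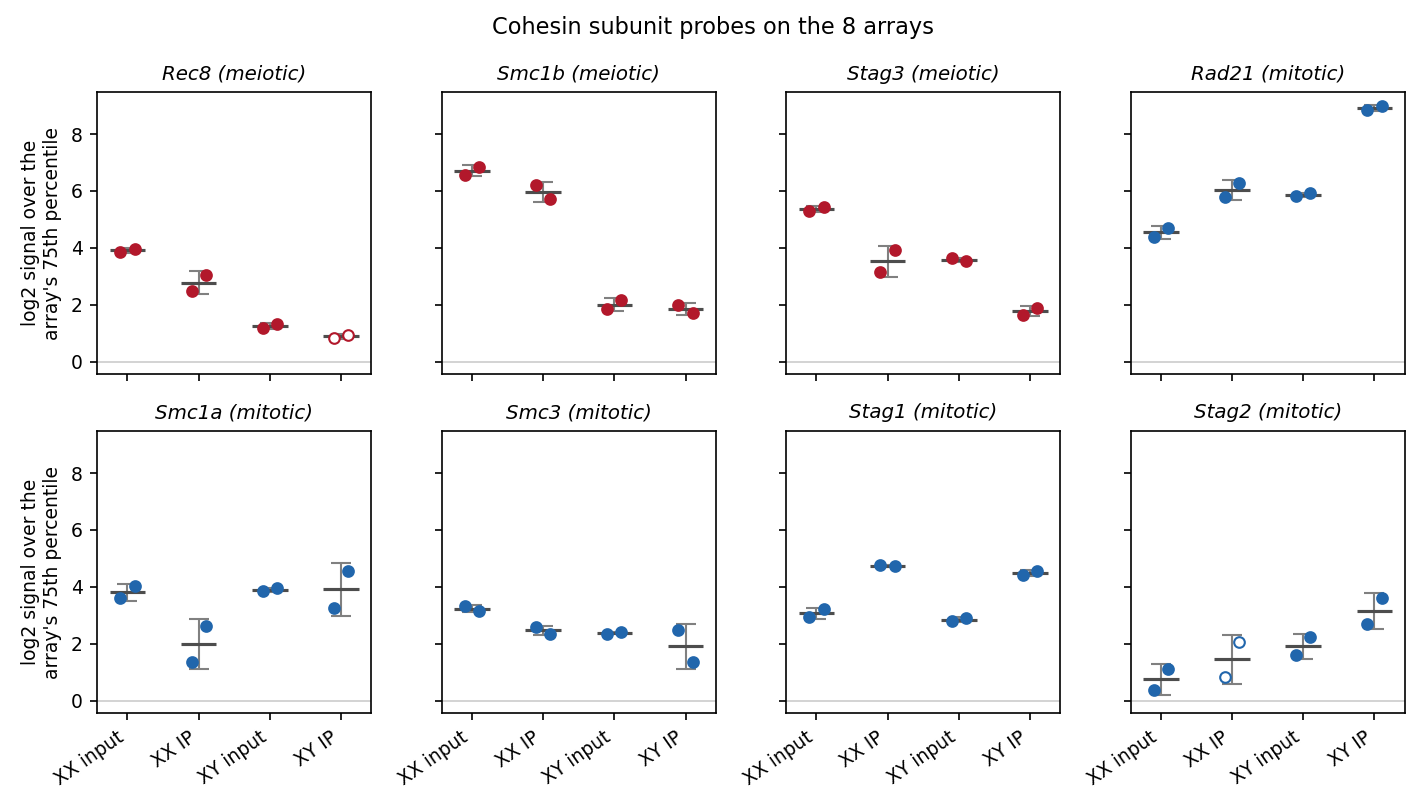
Log2 signal over the 75th percentile of the array for each subunit's representative probe on the 8 arrays. Points are arrays (red meiotic, blue mitotic), bars are means with SD of 2 arrays, and open points mark groups in which the probe was not well above background on both arrays. Smc1b falls from 6.57 and 6.86 in XX input to 1.83 and 2.16 in XY input, and Rad21 is highest in the XY IP.

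The same comparison was made in the RNA precipitated with DAZL. Against 11.7% of tested probes called higher in the XX IP and 8.78% called lower, the 3 meiotic subunits were called higher and Rad21, Smc1a and Stag2 lower. Smc1b was 6.20 and 5.72 in XX IP and 2.00 and 1.70 in XY IP, a difference of 4.11 ± 0.40 (17.2-fold, adjusted p = 4.87e-05). Rec8 was 2.49 and 3.06 against 0.83 and 0.95, a difference of 1.88 ± 0.39 (adjusted p = 0.00477), and it was above background on 1 of the 2 XY IPs. Stag3 was 3.14 and 3.91 against 1.65 and 1.90, a difference of 1.75 ± 0.41 (adjusted p = 0.00924). For each of these 3 the XX and XY arrays did not overlap, and the second Rec8 probe was not above background on any IP. The summed level of the 10 germ cell markers was 435 to 455 times the 75th percentile in XX IP and 705 to 1077 in XY IP, and its part in these differences was not tested.

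Rad21 was 5.78 and 6.27 in XX IP and 8.84 and 9.0 in XY IP. This difference of -2.89 ± 0.39 (7.41-fold lower in XX, adjusted p = 0.000358) lay below that of all but 1.42% of tested probes. The second Rad21 probe was not above background on either XX IP and on 1 of the 2 XY IPs, so no difference of it that involves an XX IP is given. Smc1a was 1.37 and 2.62 against 3.25 and 4.57, a difference of -1.92 ± 0.53 with an adjusted p of 0.0237. Stag2, above background on 1 of the 2 XX IPs, was 0.84 and 2.05 against 2.69 and 3.59, a difference of -1.70 ± 0.52 with an adjusted p of 0.0386. Replicates of Smc1a and Stag2 lay far apart on the IPs, both lost their call without XX IP replicate 1 (adjusted p = 0.154 and 0.213) or without XY IP replicate 2 (0.133 and 0.176). The second Stag2 probe, above background on 1 of the 2 XX IPs, differed by -0.83 and was not called, and the third was not above background in either IP. For Smc3 and Stag1 the differences were 0.56 and 0.24 and did not pass (adjusted p = 0.445 and 0.764). Scaled to the 50th percentile, only Smc1b and Rad21 kept their calls between the IPs, and after normexp correction only Smc1b, with Rec8 at 0.82 and Stag3 at 1.00 (adjusted p = 0.477 and 0.612).

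Ratios between subunits are the same whatever constant an array is scaled by. Each of the 3 meiotic subunits was set against each of the 5 mitotic ones, which gave 15 pairs. These reuse the same probes and are not separate observations. How often pairs of any probes fail to overlap in this way was not computed. In all 15 the XX minus XY difference was larger for the meiotic member on every array, both in input, by 0.92 to 6.05 on the log2 scale with a median of 3.11, and in IP, by 1.19 to 7.0 with a median of 3.67, but with the second bright Stag1 probe, a choice made after seeing the data, 1 of the 15 overlapped in IP (Stag3 against Stag1, 0.47). The narrowest pairs were Stag3 against Smc3, at 0.92 in input and 1.19 in IP, and the widest were Smc1b against Rad21, at 6.05 and 7.0. Within each role, the kleisins Rec8 and Rad21 were 3.99 apart in input and 4.77 in IP, the SMC proteins Smc1b and Smc1a 4.81 and 6.03, and Stag3 and Stag1 1.55 and 1.51, or 1.75 and 0.47 with the second bright Stag1 probe. With 2 arrays a group an exact two-sided permutation test of a single ratio cannot go below 0.333, so these ratios are given as values.

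**Figure D2:**
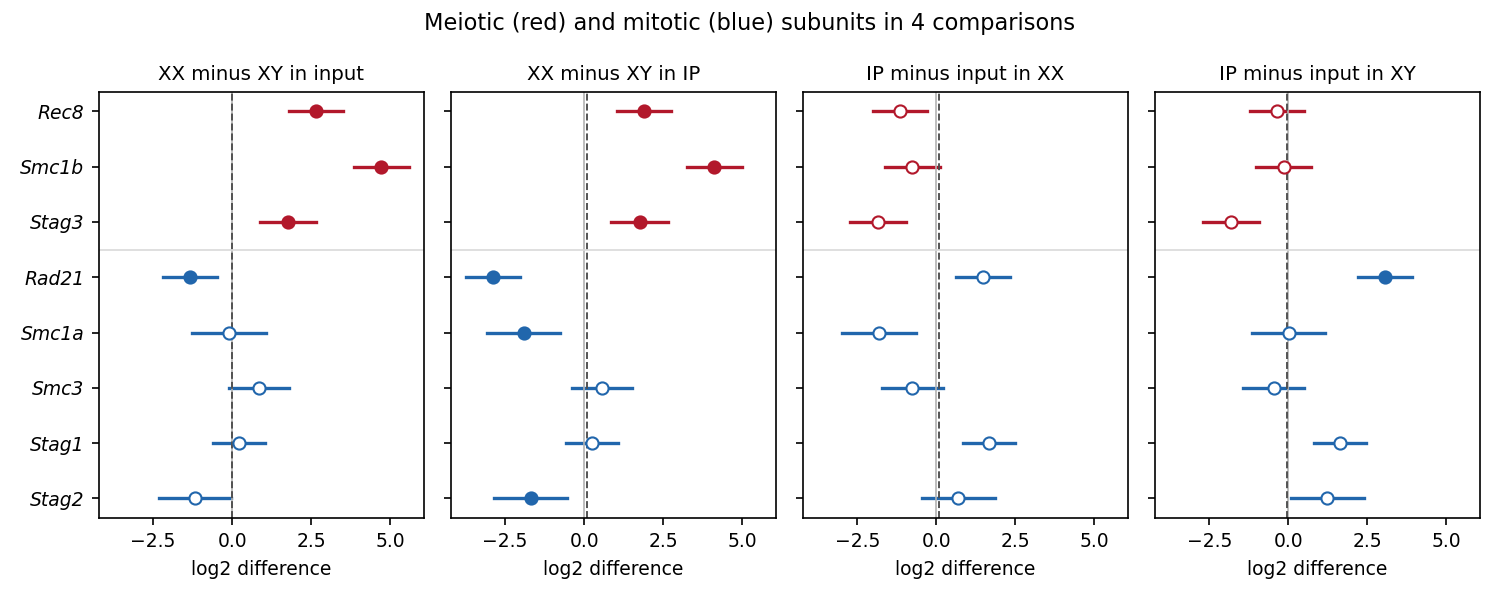
Log2 differences of the 8 subunits with 95% confidence intervals from limma, in 4 comparisons. Filled points were called, dashed lines are the medians of all tested probes, and the 3 meiotic subunits (red) lie to the right of the 5 mitotic ones (blue) in both comparisons of XX with XY.

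Recovery with DAZL, the comparison of IP with input, set the subunits in a different order. A probe was called when the adjusted p was under 0.05 and the change at least 4-fold, which 14.0% of tested probes were in the direction of IP and 9.91% in the direction of input in XX, and 10.2% and 7.68% in XY. By this rule 0 of the 8 subunits were called in XX, and in XY Rad21 was called higher in the IP and the other 7 were not called. At an unadjusted p under 0.05, limma gave 5 of the 8 in XX, beside 55.8% of all tested probes.

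Rad21 was higher in the IP than in the input by 1.49 ± 0.39 in XX (2.80-fold, adjusted p = 0.00855) and by 3.05 ± 0.39 in XY (8.27-fold, adjusted p = 0.000216). In XY its 2 IP arrays were at 8.84 and 9.0 against 5.82 and 5.92 in input, and this difference exceeded that of 96.4% of tested probes. The second Rad21 probe, above background on 1 of the 2 XY IPs, was higher in the XY IP by 3.14 ± 0.40 (adjusted p = 0.000199). Stag1 was higher in both IPs, at 4.75 and 4.72 against 2.93 and 3.21 in XX and 4.42 and 4.57 against 2.78 and 2.91 in XY, differences of 1.66 ± 0.38 and 1.65 ± 0.38 (adjusted p = 0.00379 and 0.00530). A second bright Stag1 probe downstream of it (chr9:100767638-100767697) was also higher in the XX IP, by 1.17 ± 0.39, but not in XY, where the difference was -0.09 ± 0.39 (adjusted p = 0.877). That probe was 4.40 and 4.32 on the XX IPs and 2.82 and 3.34 on the XY IPs, and it alone of the tested Stag1 probes was called between the IPs, at 1.28 ± 0.39 higher in XX (adjusted p = 0.0356). The third Stag1 probe was not above background in either IP. Stag2 differed by 0.70 ± 0.52 in XX and 1.23 ± 0.52 in XY (adjusted p = 0.285 and 0.0793), and its second probe by -0.12 and 0.27 (adjusted p = 0.821 and 0.606).

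The mRNA of the meiotic STAG protein had the opposite sign to that of Stag1. Stag3 was lower in the IP than in the input in both sexes, by -1.83 ± 0.41 in XX and -1.81 ± 0.41 in XY (adjusted p = 0.00339 and 0.00487), a change of 3.57-fold and 3.50-fold. Rec8 was lower by -1.14 ± 0.39 in XX (2.20-fold, adjusted p = 0.0308), and in XY it differed by -0.36 ± 0.39 (adjusted p = 0.480). Its XY value is near the floor, since Rec8 was above background on 1 of the 2 XY IPs. For Smc1b, with the widest sex difference of the 8, the differences were -0.75 ± 0.40 in XX and -0.14 ± 0.40 in XY and did not pass (adjusted p = 0.136 and 0.797), with intervals of -1.62 to 0.12 and -1.01 to 0.73. Smc1a was lower in XX, by -1.82 ± 0.53 (adjusted p = 0.0150), whereas the difference in XY was 0.01 with an interval of -1.15 to 1.17. Smc3 differed by -0.76 and -0.46 and did not pass in either sex.

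Directions of IP against input rest on the scaling and the background correction. The 75th percentile was 77.4 to 173 scanner units on inputs and 6.83 to 13.1 on IPs, and the median difference was 0.09 in XX and -0.03 in XY over all tested probes but 0.56 and 0.41 over the 4206 that no array had at background. The median probe was 8.08 to 16.0 scanner units on inputs and 3.29 to 4.48 on IPs. With arrays scaled to the 50th percentile, Rad21 in XX and Stag1 in both sexes turned to -0.52, -0.34 and -0.22, and Rad21 in XY was 1.18 and not called (adjusted p = 0.0903). After background correction by the normexp model, Rad21 in XX and Stag1 in both sexes turned as well, to -0.60, -0.31 and -0.095, and Rad21 in XY was not called (0.84, adjusted p = 0.415). Stag3 was lower in the IP under all the processing alternatives tried and without each array in turn, with differences from -3.84 to -1.45 in XX and from -3.67 to -1.68 in XY.

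Ranks among probes, and ratios between subunits, do not move when a whole array is scaled up or down, but they can move with the background correction. Ordered from the least to the most recovered among all tested probes, the subunits stood in XX at 12.1% (Stag3), 12.4% (Smc1a), 24.0% (Rec8), 31.9% (Smc3), 32.0% (Smc1b), 63.9% (Stag2), 78.5% (Rad21) and 81.1% (Stag1). In XY the order was Stag3 at 10.5%, Smc3 at 38.8%, Rec8 at 41.3%, Smc1b at 46.9%, Smc1a at 51.1%, Stag2 at 79.5%, Stag1 at 85.8% and Rad21 at 96.4%. Among neighbours in this order, arrays overlapped between Stag3 and Smc1a, Rec8 and Smc3, and Smc3 and Smc1b in XX, and between Smc3 and Rec8, Rec8 and Smc1b, and Smc1b and Smc1a in XY. Ratios between mitotic subunits were not computed, and the 95% intervals of neighbours among Stag2, Rad21 and Stag1 overlapped in both sexes. Stag3 stood far below the middle in both sexes, and Rec8 and Smc1b below it in XX. In XY, Rec8 and Smc1b were nearer to it and stood above it after quantile normalization (-0.18 and 0.034 against a median of -0.73), as Smc1b did without XY input replicate 2 or XY IP replicate 2 (0.021 and 0.0050 against medians of -0.038 and -0.10). The side of Stag1 and Stag2 depended on the probe, since the second bright Stag1 probe was at 48.4% in XY and the second Stag2 probe at 45.4% in XX. Dazl stood at 92.2% in XX and 90.3% in XY.

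**Figure D3:**
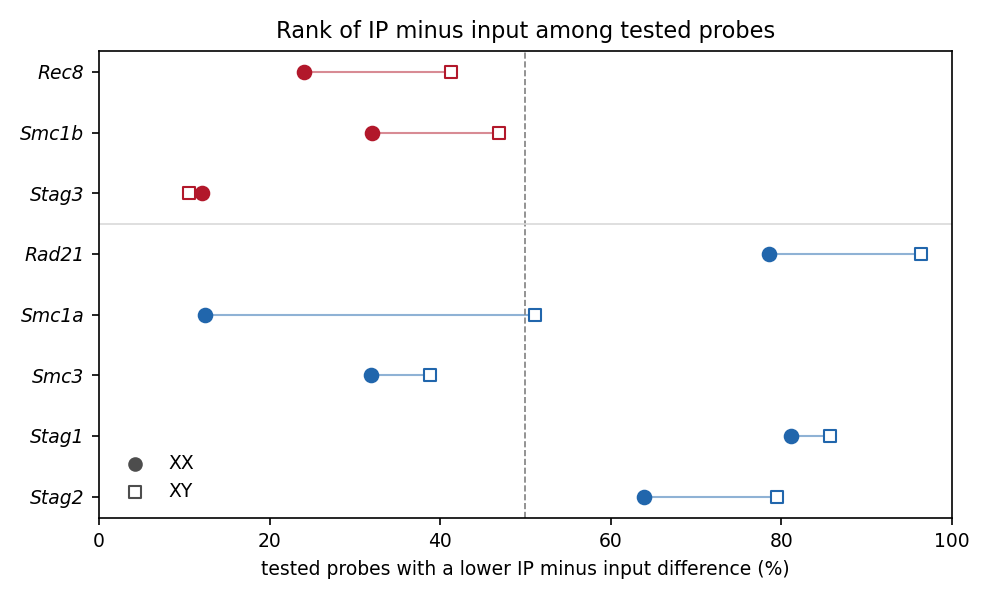
Share of the 18265 tested probes with a lower IP minus input difference than each subunit, in XX (filled circles) and XY (open squares), with the middle of all tested probes as a dashed line. Stag3 is at 12.1% and 10.5%, and Rad21 at 78.5% and 96.4%.

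Within the roles, the kleisins differed in both sexes. Relative to Rad21, Rec8 was recovered 6.16-fold less in XX and 10.6-fold less in XY, with no overlap of arrays in either sex. Rec8 was above background on only 1 of the 2 XY IPs. Stag3 relative to the brightest Stag1 probe was recovered 11.3-fold less in XX and 11-fold less in XY, and relative to the second one 8.01-fold and 3.30-fold less. Relative to Stag2 it was recovered 5.80-fold less in XX and 8.23-fold less in XY, and relative to the second Stag2 probe 3.29-fold and 4.22-fold less. In contrast, Smc1b relative to Smc1a was recovered 2.09-fold more in XX, with no overlap, while in XY the arrays overlapped (1.11-fold less). Of the 15 meiotic against mitotic pairs, 10 had the lower recovery in the meiotic member on every array in XX, 2 had the higher, and 3 overlapped. In XY these numbers were 11, 0 and 4, or 10, 0 and 5 with the second Stag1 probe. The pairs share probes, and the same counts over pairs of any probes were not computed. Relative to Dazl mRNA, lower recovery was not particular to the meiotic subunits, which were recovered 10.9-fold to 23.0-fold less in XX and 4.61-fold to 14.6-fold less in XY. The mitotic Smc1a (22.7-fold and 4.15-fold less) and Smc3 (10.9-fold and 5.75-fold less) lay at similar values. Stag1 (2.03-fold and 1.33-fold) and Stag2 (3.96-fold and 1.77-fold) were also recovered less on every array, and Rad21 was 2.30-fold less in XX. Rad21 in XY was 1.98-fold more by the brightest Dazl probe, but by the second Dazl probe its arrays overlapped (1.09-fold), while the meiotic subunits were 14.4-fold to 30.4-fold less in XX and 8.42-fold to 26.7-fold less in XY. By that probe Smc1a was 30-fold less in XX and 7.57-fold less in XY, Smc3 14.4-fold and 10.5-fold, Stag1 2.69-fold and 2.43-fold, and Stag2 5.24-fold and 3.24-fold.

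**Figure D4:**
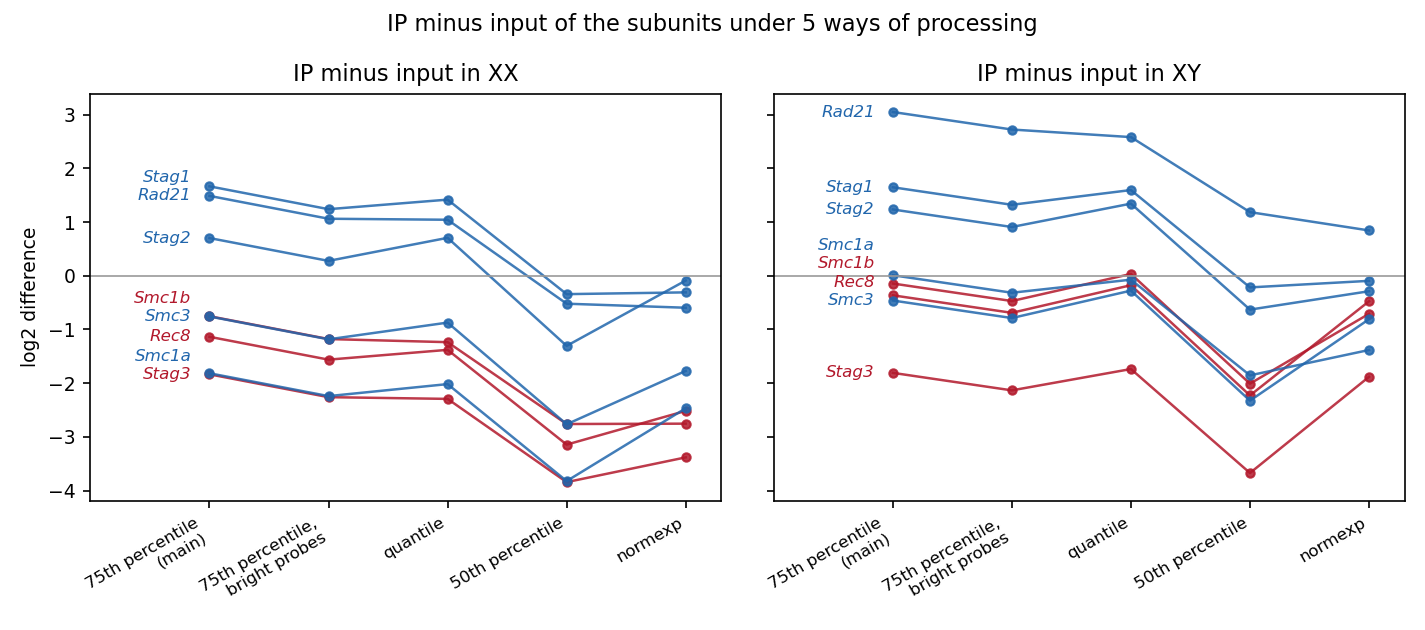
IP minus input log2 differences of the subunits under 5 ways of processing, in XX and XY (red meiotic, blue mitotic). Bright probes are those above background on all 8 arrays, and normexp is a model-based background correction. The whole set shifts down under the 50th percentile, to -0.52 for Rad21 in XX, and Rad21 in XY stays the highest, at 1.18 there.

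The question of whether recovery with DAZL differed between ovary and testis was put by the difference between the 2 IP minus input contrasts, in which 2.18% of tested probes were called higher in XX and 1.12% lower. In this test 0 of the 8 subunits were called by limma, and 2 of the 8 had an unadjusted p under 0.05, beside 16.4% of all tested probes. These were Rad21, at -1.56 ± 0.55 (adjusted p = 0.165), and Smc1a, at -1.82 ± 0.75 (adjusted p = 0.245), both with the higher value in XY. The second bright Stag1 probe differed in the other direction, by 1.25 ± 0.55 (adjusted p = 0.276), whereas the brightest one differed by 0.02. For the meiotic subunits the differences were -0.77 (Rec8), -0.61 (Smc1b) and -0.03 (Stag3), and their intervals ran from -1.98 to 0.44, from -1.84 to 0.62 and from -1.28 to 1.23. The Rec8 value includes an XY IP in which it was above background on 1 of 2 arrays.

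Genes that load, acetylate, protect or release cohesin were measured as a list of 17, of which 15 had a probe and 13 were tested. Between the inputs only Esco2, the acetyltransferase that locks cohesin on during replication, was called, 2.37 ± 0.38 higher in XX (adjusted p = 0.00154). Esco2 was also the only one of them called in the IPs, 3.56 ± 0.38 higher than input in XX and 3.34 ± 0.38 in XY (adjusted p = 8.82e-05 and 0.000119). Between the IPs 4 were called higher in XX, namely the loader subunits Nipbl (1.35) and Mau2 (1.91) and the acetyltransferases Esco1 (at least 1.59-fold, since it was not above background in the XY IP) and Esco2 (2.60), and securin, encoded by Pttg1, was called lower (-1.86). Mau2 was above background on 1 of 2 arrays in each IP, and its call was lost without XX IP replicate 2 or XY IP replicate 1 (adjusted p = 0.161 and 0.123). That of Pttg1 was lost without XX IP replicate 1 or XY IP replicate 2 (0.0896 and 0.0710), and that of Nipbl without XX IP replicate 1 or any 1 of the inputs (adjusted p up to 0.0778). Against input, the median difference of the 13 was 0.94 in XX and 0.32 in XY. Only 7 of the 13 were above background on both XX IPs, and 7 on both XY IPs, so these medians include probes at the floor of the IPs.

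Of 15 tested genes of condensin and the SMC5/6 complex, with the SMC-like Smchd1, 0 were called by limma between the inputs and 1 had an unadjusted p under 0.05, beside 23.8% of all tested probes. Their median difference was -0.09, beside -0.09 for the 5 mitotic and 2.66 for the 3 meiotic subunits. In both IPs Smc6 was called higher than input (2.52 and 2.53) and Nsmce2, the SUMO ligase of the SMC5/6 complex, lower (at least 1.67-fold in XX and 2.81-fold in XY, since it was not above background in the IPs). A second Smc6 probe, above background on all 4 XX arrays, was at 0.99 in XX and not called (adjusted p = 0.0567), and it was not above background on either XY IP. Without XY IP replicate 1, Smc6 in XY was 1.96 and no longer 4-fold. Between the IPs Ncapg2 (2.51), Smc2 and Smc4 (1.82) of condensin were called higher in XX and Nsmce1 lower (-2.23). Smc2 was not above background on either XY IP and on 1 of the 2 XX IPs, so it has only a bound, at least 1.40-fold. Smc2 and Smc4 lost their call without either XX IP replicate 1 (adjusted p = 0.151 and 0.0907) or XY IP replicate 2 (0.155 and 0.0743), and Smc2 also without XX IP replicate 2 (0.0640).

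Genes of the chromosome axis and the synaptonemal complex, which assemble on REC8 cohesin, were also higher in XX. Of 10 tested, 9 were called higher in XX input, with a median difference of 3.25 and the largest for Syce3 (3.90), Hormad2 (3.47) and Sycp3 (3.44). Between the IPs 9 were called higher in XX, among them Six6os1 (4.09), Syce1 (3.85, above background on 1 of the 2 XY IPs) and Sycp3 (3.80). Only 4 of the 10 were above background on both XY IPs. Sycp1, Syce3, Hormad1 and Hormad2 were above it on neither and have only bounds, at least 1.79-fold, 2.11-fold, 7.07-fold and 3.11-fold. Sycp2, also above it on neither, has no bound. Against input, 4 were called higher in the XX IP, Six6os1 (3.91), Tex12 (3.47), Sycp3 (2.75) and Syce2 (2.47), and Sycp1 was called lower (-2.43). The Six6os1 probes disagreed, since of the other 3 tested, all above background on the 4 XX arrays, 1 was also called higher (5.06) and 2 were not called, at 0.62 and -0.83 (adjusted p = 0.428 and 0.244). The Sycp1 call rested on 1 array, since the XX IPs were at 3.17 and -0.56 with only the first above background, and without XX IP replicate 2 the difference was -0.57 (adjusted p = 0.338). The other Sycp1 calls were also lost without 1 array, between the inputs without XX input replicate 1 (adjusted p = 0.0515) and between the IPs without XX IP replicate 1 or either XY IP (up to 0.183). In XY, Tex12 (3.51), Six6os1 (3.22) and Sycp3 (2.39) were called higher, but the Six6os1 probe that was lower in XX was at -0.54 in XY as well (adjusted p = 0.471), above background on 1 of the 2 XY IPs. The median recovery of the 10 was 0.81 in XX, beside -1.14 for the 3 meiotic cohesins, but the 10 ran from -2.43 to 3.91. Besides Sycp1, the means of Syce3 (3.28 to 1.54), Sycp2 (1.29 to -0.19) and Syce1 (5.11 to 4.58) fell from XX input to XX IP. Those of the rest rose, and 7 of the 10 were above background on both XX IPs. Lower recovery in XX was therefore not particular to the meiotic cohesins. Stra8, which starts meiosis, was 6.41 ± 0.49 higher in XX than in XY input (adjusted p = 1.03e-05).

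Genes with the most similar profile over the 8 arrays were sought among 5224 probes of other genes above background on all XX arrays. For Smc1b these were Efcab7 (r = 0.995), Scml2 (0.991) and Tnfrsf19 (0.983). Rec8 was followed most closely by the X-linked homeobox genes Rhox9 (0.989) and Rhox13 (0.985), and by D630039A03Rik (0.983), and Stag3 by Gpat2 (0.994), Dnajc18 (0.989) and Nmb (0.989). The 8 arrays form 4 groups and share their scaling, so these Pearson correlations describe mostly the 4 group means.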

How the data were processed

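The members and gene lists were chosen with earlier results of these data known. RNA from input and anti-DAZL immunoprecipitates was hybridised to 8 1-colour Agilent whole mouse genome arrays, 2 in each of 4 groups taken from the labels. The deposited intensity of each spot had been background-subtracted and detrended by the authors with Agilent Feature Extraction (version 9.5 in the submitters' processing notes). The authors' deposited table holds log2 values scaled to the 75th percentile of each array, with an unstated constant, and it was used as an alternative. The scanner's marks for controls, outliers and probes above background, deposited beside the intensity, are not a measured score.

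Here, control and outlier spots were left out, intensities under 1 were set to 1, spots of a probe were averaged, and the 75th percentile of the array was subtracted on the log2 scale. Of 41101 probes, 18265 were tested, each marked as well above background by both arrays in 1 group or more. The test was limma 3.58.1 in R 4.3.3 (1 mean per group over all 8 arrays, eBayes, two-sided). P-values were adjusted by Benjamini-Hochberg over all tested probes. Calls needed an adjusted p under 0.05 and, for IP against input, at least a 4-fold change. The text names every member. Of the lists of cohesin partners, other SMC complexes and axis genes it names all called genes where 5 or fewer were called, and otherwise the 3 with the largest difference, and marker lists are given mainly by counts and summed levels. A fold against a group not above background is a bound, taken from the lowest signal above background on those arrays. Probe names came from the files and from RefSeq, and 8148 of 41174 probes had none. Precision is limited by the 2 arrays per group. Alternatives covered background correction (normexp), scaling, the floor, the filter on dim probes, the choice of probe, the arrays in the fit, a replicate block and leaving out each array. The scripts were tested on simulated data.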

Additional observations from a re-analysis of the deposited data

How the results depend on the processing

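The number of subunits called was 0 for IP against input in XX, 1 in XY, 4 between the inputs, 6 between the IPs and 0 for the difference in recovery. In XX it became 4 with normexp, 4 with normexp after outlying local backgrounds were replaced, 5 with the 50th percentile, 2 with the 75th percentile of bright probes and 2 with quantile normalization, all lower in the IP. In the same order, 2088, 2085, 8643, 2858 and 3286 of all 18265 tested probes were called lower in XX, beside 1810 in the main fit. In XY it became 0 with normexp, 4 with the 50th percentile and 2 with bright probes. In the same order, 21, 219 and 1256 of all 18265 tested probes were called higher in XY and 801, 8379 and 2184 lower. The main fit had 1861 and 1403. Between the inputs it became 2 with the 50th percentile and 2 without the filter on dim probes. Of all 18265 tested probes, 510 were then called higher in XX and 545 lower with the 50th percentile. Without the filter these were 549 and 631 of 41101, beside 1072 and 1114 in the main fit. Between the IPs it became 1 with normexp, 2 with replaced backgrounds, 2 with the 50th percentile, 3 without the filter and 3 with only the compared arrays in the fit. In the same order, 279, 503, 554, 1222 and 1429 of all probes were called higher in XX and 9, 119, 364, 714 and 863 lower. The main fit had 2144 and 1604. For the difference in recovery it became 1 with replaced backgrounds (Smc1b), where 125 of all tested probes were called higher in XX and 102 lower. Leaving out 1 array gave 0 to 2 in XX, 1 in XY, 2 to 4 between the inputs, 4 to 6 between the IPs and 0 for the difference. In XX, Stag3 and Smc1a were called lower without XX IP replicate 2, and Smc1a without XX input replicate 1. The 50th percentile moved the median of all tested probes to -1.92 in XX and -1.90 in XY, quantile normalization to -0.74 and -0.73, and bright probes to -0.34 and -0.36. Signs turned as follows, in the order normexp, replaced backgrounds, 50th percentile. In XX, Rad21 was -0.60, -0.62 and -0.52, Stag1 -0.31, -0.33 and -0.34, and Stag2 -0.089, -0.085 and -1.31. In XY, Smc1a was -1.38, -1.68 and -1.85, Stag1 -0.095, -0.25 and -0.22, and Stag2 -0.29, -0.28 and -0.63. For the difference in recovery, Stag1 was -0.21, -0.073 and -0.13, and Stag2 was 0.20 with normexp and 0.20 with replaced backgrounds. With bright probes Smc1a in XY was -0.32 and the Stag1 difference -0.082. With quantile normalization Smc1a in XY was -0.073, Smc1b in XY 0.034 and the Stag1 difference -0.18. Smc1a between the inputs was 0.66 with normexp. Without 1 array at a time, values that changed sign ranged in XY from -0.65 to 0.67 for Smc1a, -0.31 to 0.021 for Smc1b and -1.02 to 0.096 for Smc3, and between the inputs from -0.30 to 0.12 for Smc1a. The difference in recovery then ranged from -0.85 to 0.26 for Smc3, -0.12 to 0.16 for Stag1, -1.14 to 0.075 for Stag2 and -0.41 to 0.36 for Stag3. The cause of these shifts was not tested. With the replicate number as a block, the numbers called were 0, 1, 5, 6 and 0, the subunit gained between the inputs being Stag2 (-1.16, adjusted p = 0.0459). The labels do not say that the numbers pair samples, and same-numbered deviations of input and IP correlated at 0.03 in XX and 0.14 in XY over 4206 probes, at 0.52 between the inputs of both sexes and at 0.54 between the IPs.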
